A study of Mus musculus with 24 samples.

Results

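Circulating hormones of the fasted or stressed liver, Fgf21, Igfbp1 and Gdf15, were followed across the liver, cerebellum and testes of mice with and without Thumpd1. These 3 genes, of 55450 in the table, were chosen by name with their liver values from an earlier reading of these data known. The liver values below are therefore a description, with no test. Thumpd1 encodes the tRNA-binding partner of the acetyltransferase Nat10, which makes N4-acetylcytidine in serine and leucine tRNAs. The series held 24 RNA libraries in 6 groups of 4, wild type (WT, replicates 1 to 4) and Thumpd1 knockout (KO, replicates 5 to 8) of each tissue.

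KO animals descended from C57BL/6N eggs injected with Cas9 protein and a pair of guide RNAs that cut exon 1 and exon 4 of Thumpd1, so the deletion was constitutive and present in every cell type. WT animals were littermates of matched age. Mice of both genotypes were 6 to 12 weeks old, were kept at 12 h of light and 12 h of dark, and no treatment is named. The labels do not give the founder line, the feeding state or the hour of collection for any library. The study calls the libraries of a tissue biological replicates, but the labels do not tie libraries to animals, so p-values measure the spread between these libraries, which may be partly technical.

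FGF21 is a hormone made mainly by hepatocytes during fasting, protein restriction and mitochondrial or amino acid stress, and it acts on cells that carry the coreceptor beta-Klotho (Klb) with an FGF receptor. IGFBP1 is a secreted protein that binds insulin-like growth factors, and its gene is repressed by insulin through FOXO1 and induced by fasting, glucocorticoids and ATF4. GDF15 is a distant member of the TGF-beta family that is made by many stressed cells and acts on the brainstem receptor GFRAL with RET to lower food intake. ATF4, which carries out the integrated stress response, can raise all of these transcripts, and PPARA, the fatty acid sensor of the fasted liver, is a known regulator of Fgf21.

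Depth set how firmly a low gene could be read. Liver libraries held 18145725 to 37889615 counts, cerebellum 16353797 to 24728845 and testes 27273231 to 36621604. Thumpd1 checked the labels. In liver it measured 9.19 to 10.1 count-per-million units (CPM) in the 4 WT libraries and 0 to 0.106 CPM in the 4 KO libraries, and it fell by 7.47 on the log2 scale (SE 0.420, limma adjusted p = 2.77e-05). All 8 liver libraries held 20.9 to 30.5 CPM of the Y-linked Ddx3y, and Xist stood at 2.59 CPM in WT 4 against 0 to 0.132 CPM in the other 7. Some neighbouring liver libraries were close. The median absolute log2 difference was 0.0970 to 0.123 between KO 5 and KO 6 and between KO 7 and KO 8, against 0.189 to 0.207 for the other KO pairs. WT 1 and WT 2 differed by 0.0750, but WT 3 and WT 4 by 0.131, near the 0.132 to 0.178 of the remaining WT pairs, so WT 3 and WT 4 were no close pair. The labels do not say what neighbouring libraries share. When neighbours were summed, leaving 2 against 2, limma called 10 genes in liver in place of 757.

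Promoter sequences are shown because the stress and fasting factors named above act there. All were taken from RefSeq on GRCm38.p6, 250 bases before to 50 bases after the annotated start. Fgf21 (ENSMUSG00000030827.5) lies on chr7:45613886-45615490, minus strand, with 951 exonic bases. Capitals in its promoter, chr7:45615441-45615740 on the minus strand, mark TTGCATCA, the reverse complement of the C/EBP-ATF composite element TGATGNAA, at -139 to -132, and the E-box CACGTG at -50 to -45.
Fgf21 promoter: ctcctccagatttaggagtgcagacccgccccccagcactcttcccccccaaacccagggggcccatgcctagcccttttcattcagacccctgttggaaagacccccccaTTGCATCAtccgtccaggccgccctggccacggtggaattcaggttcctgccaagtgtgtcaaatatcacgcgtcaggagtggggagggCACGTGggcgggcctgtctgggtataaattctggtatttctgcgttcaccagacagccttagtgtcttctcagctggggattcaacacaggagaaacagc

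Igfbp1 (ENSMUSG00000020429.7) lies on chr11:7197782-7202546, plus strand, with 1525 exonic bases. Capitals in its promoter, chr11:7197537-7197836 on the plus strand, mark the insulin response element CAAAACA at -108 to -102, the class of site that FOXO1 binds.
Igfbp1 promoter: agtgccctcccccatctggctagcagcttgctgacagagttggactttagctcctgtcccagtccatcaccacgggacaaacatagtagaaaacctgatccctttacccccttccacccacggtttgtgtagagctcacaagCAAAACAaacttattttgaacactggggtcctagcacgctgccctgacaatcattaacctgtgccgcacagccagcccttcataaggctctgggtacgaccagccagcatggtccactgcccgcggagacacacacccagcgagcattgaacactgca

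Both strands were searched for 8 motifs in 32851 mouse promoters of this length. TGATGNAA occurred in 3.97% of them, CACGTG in 7.15% and CAAAACA in 6.28%. The forkhead element GTAAACA was in 3.65%, the D-box TTATGNAA in 3.38%, the cyclic AMP element TGACGTCA in 1.79%, the ATF element TGACGCAA in 0.490% and the PPAR element, a direct repeat with 1 base between, in 0.0396%. Gdf15 (ENSMUSG00000038508.7) lies on chr8:70629393-70632456, minus strand, with 1852 exonic bases. RefSeq lists 2 promoters for it. The one at the GENCODE start, chr8:70632407-70632706, matched none of the 8 motifs, which says only that these letters were not in this window. The other, chr8:70632046-70632345, starts 361 bases away and matched 1 of them, the E-box CACGTG at -83 to -78. No exon of the 3 genes overlapped an exon of another gene on either strand.

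Fgf21 was scarce in WT liver and several times higher in KO liver. WT 1 and WT 2 measured 0.775 and 0.777 CPM, and WT 3 and WT 4 measured 0.156 and 0.148 CPM, from 4 to 25 counts each. KO 5 to KO 8 measured 1.35, 2.42, 2.48 and 2.38 CPM, from 27 to 94 counts. The genotypes did not overlap, and the lowest KO library stood 1.74 times above the highest WT library. The WT mean was 0.464 ± 0.360 CPM and the KO mean 2.16 ± 0.539 CPM (SD, n = 4 each), a ratio of 4.65. On the log2 scale of the limma fit the difference was 2.74 (SE 0.529). Only the 4 KO libraries reached 1 CPM, so Fgf21 passed the low-count filter through the group where it was high.

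WT libraries did not agree on the Fgf21 level. The mean of WT 1 and WT 2 was 5.11 times that of WT 3 and WT 4, a gap wider than that between KO 7 and KO 8 and KO 5 and KO 6, whose means differed by 1.29 times. Among KO libraries KO 5 stood low, and its 95% Poisson interval of 0.891 to 1.97 CPM overlapped the 0.502 to 1.14 CPM of WT 1. The intervals of KO 6, KO 7 and KO 8 began at 1.76 CPM or higher, above those of all WT libraries. Such intervals cover counting error only.

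Igfbp1 was abundant and about 4 times higher in KO liver. WT 1 to WT 4 measured 21.2, 22.4, 32.0 and 28.9 CPM. KO 5 and KO 6 measured 72.2 and 78.9 CPM, and KO 7 and KO 8 measured 141.4 and 134.6 CPM. Every KO library was above every WT library, by at least 2.26 times, and counts of 685 to 5358 per library left little counting error. The WT libraries averaged 26.1 ± 5.16 CPM and the KO libraries 106.8 ± 36.3 CPM (SD, n = 4 each), a ratio of 4.09 and a log2 difference of 2.03 (SE 0.224). KO 7 and KO 8 stood 1.83 times above KO 5 and KO 6, and WT 1 and WT 2 stood at 0.717 times WT 3 and WT 4.

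Gdf15 differed little between genotypes. WT 1 and WT 2 measured 9.80 and 10.7 CPM, WT 3 and WT 4 measured 5.63 and 4.15 CPM. The KO libraries measured 13.7, 11.6, 8.10 and 7.40 CPM in the order KO 5 to KO 8. The groups overlapped, since KO 7 and KO 8 lay below WT 1 and WT 2, and 2 of 4 KO libraries were above all WT libraries. On average WT held 7.57 ± 3.17 CPM and KO 10.2 ± 2.98 CPM (SD, n = 4 each), a ratio of 1.35, and the log2 difference of 0.39 (SE 0.278) was close to the spread between libraries. Over alternative fits this log2 difference ran from 0.03 to 0.56.

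**Figure D1:**
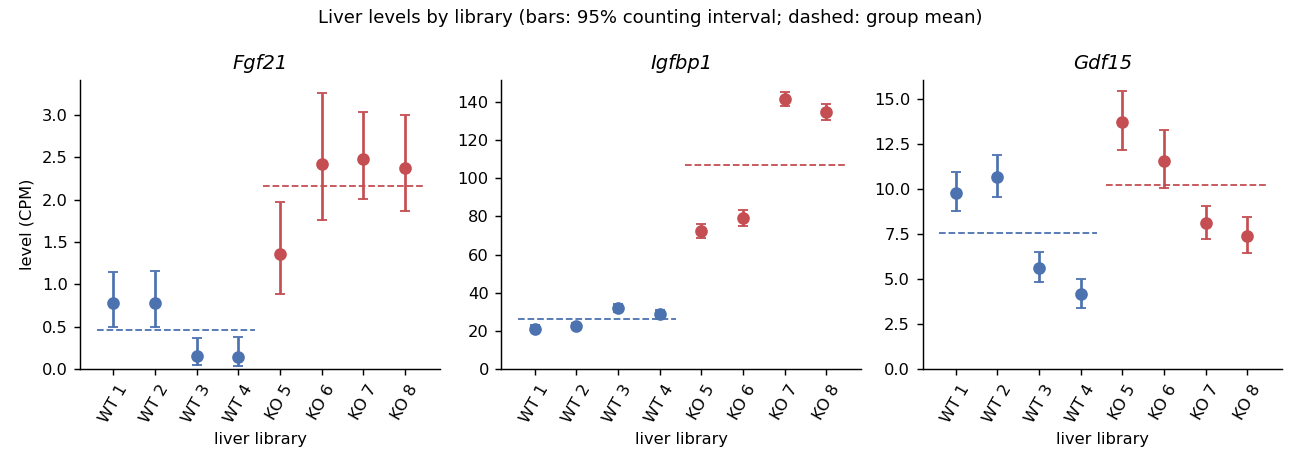
Level in CPM (linear axes from 0) of Fgf21, Igfbp1 and Gdf15 in the 8 liver libraries, with 95% Poisson counting intervals and dashed group means. For Fgf21 and Igfbp1 all 4 KO points lie above all 4 WT points, while the Gdf15 points of KO 7 and KO 8 lie below those of WT 1 and WT 2.

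As background for these counts, 7.34% of the 12816 genes tested in liver had all 4 KO libraries above all 4 WT libraries and 5.31% had them all below. Fgf21 and Igfbp1 were in the first class and Gdf15 in neither, and nothing is read from this, since the genes were chosen on this contrast. Limma called 2.79% of genes higher and 3.12% lower in KO liver, and 12 genes, Fgf21 among them, were higher in KO by a log2 difference of that size or more. Per kilobase of exon, the KO level ran from 70.0 CPM per kb for Igfbp1 through 5.51 for Gdf15 to 2.27 for Fgf21. In WT the order was the same, at 17.1, 4.09 and 0.488 CPM per kb.

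The 3 genes ordered the liver libraries differently. Fgf21 and Gdf15 were both lower in WT 3 and WT 4 than in WT 1 and WT 2, but in KO the Gdf15 level was lower in KO 7 and KO 8 (0.613 times KO 5 and KO 6) where Igfbp1 was highest. The order of the Igfbp1 values was WT 1, WT 2, WT 4, WT 3, KO 5, KO 6, KO 8, KO 7, so that its neighbouring libraries always ranked side by side. The same was true of Gdf15, in the order WT 4, WT 3, KO 8, KO 7, WT 1, WT 2, KO 6, KO 5. For Fgf21 it was true in WT but not in KO.

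Outside the liver all 3 genes were low or absent. No count of Fgf21 was found in any of the 8 cerebellum libraries, which allows levels of up to 0.121 to 0.183 CPM at 3 counts per library, a one-sided limit. Testes held more Fgf21 than WT liver did, at 0.904, 0.993, 1.17 and 0.943 CPM in WT and 0.832, 0.660, 0.710 and 1.42 CPM in KO. The 4 WT testes libraries were all above the 4 WT liver libraries, whose highest value was 0.777 CPM, whereas KO 6 and KO 7 of testes fell among them. Abundant noncoding RNAs took 17.5% to 31.0% of liver counts and 4.56% to 5.83% of testes counts. With these RNAs left out of the totals the WT ranges overlapped. WT testes then held 0.947 to 1.23 CPM of Fgf21, and WT liver reached 0.960 CPM. The testes means, 1.00 ± 0.118 CPM for WT and 0.905 ± 0.350 CPM for KO (SD, n = 4 each), did not pass the exact two-sided permutation test (p = 0.629, adjusted p = 0.786 over 5 tests). Without KO 8, whose 1.42 CPM was the highest value, the testes difference was -0.269 CPM (exact permutation p = 0.0286 before adjustment), and the 3 remaining KO libraries were all below the WT libraries. That refit was the most extreme of the 8 that each left out a library. The other refits gave exact permutation p of 0.571 or more, so no effect is read from the refit without KO 8.

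Igfbp1 was close to its detection limit in cerebellum, with 3 to 9 counts per library. Cerebellum levels were 0.390, 0.324, 0.163 and 0.459 CPM in WT and 0.226, 0.306, 0.307 and 0.211 CPM in KO, and the genotypes overlapped. The difference of -0.0717 CPM did not pass (exact permutation p = 0.314, adjusted p = 0.619), and without WT 3 it was -0.129 CPM (exact permutation p = 0.0286 before adjustment). Leaving out any other library gave exact permutation p of 0.314 or more, so no effect is read from the refit without WT 3. In testes Igfbp1 had 2 counts in the 4 WT libraries together and 7 in the 4 KO libraries (exact permutation p = 0.371, adjusted p = 0.619).

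Gdf15 measured 0.218, 0.466, 0.435 and 0.408 CPM in WT testes and 0.160, 0.403, 0.437 and 0.553 CPM in KO testes, from 5 to 16 counts per library. Its means of 0.382 and 0.388 CPM differed by less than the spread (exact permutation p = 0.971), and the sign of the difference flipped to -0.0111 CPM on TMM library sizes. In cerebellum 5 counts were found over the 4 WT libraries and 10 over the 4 KO libraries (exact permutation p = 0.171, adjusted p = 0.619). The smallest p that 4 against 4 libraries allow is 0.0286. Whether the liver difference differed from those in the other tissues was not tested.

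**Figure D2:**
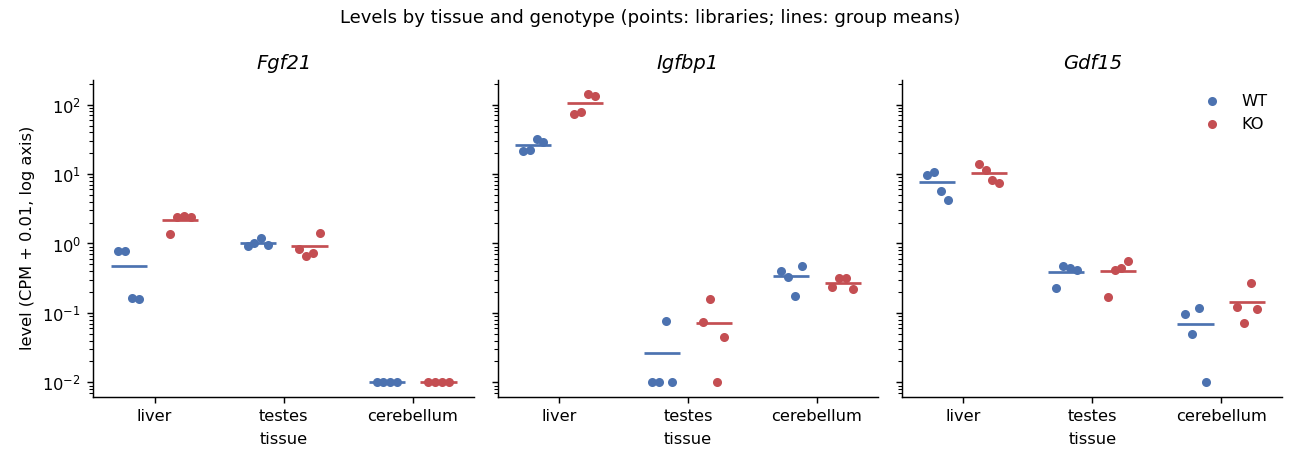
Level of each gene (CPM + 0.01, log axis) in liver, testes and cerebellum, WT in blue and KO in red, with 1 point per library and a line at each group mean. Liver held the highest Igfbp1 and Gdf15 levels, and Fgf21 was at 0 in all 8 cerebellum libraries. WT testes lay above WT liver for Fgf21 on the full library totals plotted, but overlapped it with abundant noncoding RNAs left out.

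In bulk tissue, fewer cells of a type and less RNA per cell cannot be told apart. The liver label was checked against its markers. Hepatocyte markers summed to 55279 to 72659 CPM in WT liver and 65695 to 95567 CPM in KO liver, and the hepatocyte gene Alb averaged 0.0632 to 0.226 CPM in the other tissues. Ttr, on the same list, was not restricted to liver and averaged 474.9 CPM in WT and 158.3 CPM in KO cerebellum. Kupffer cell markers summed to 176 to 221 CPM in WT and 206 to 223 CPM in KO, with 0 of 8 tested markers called. Exocrine pancreas is another source of Fgf21. Its 6 markers summed to 0.124 to 0.404 CPM in WT and 0.301 to 0.633 CPM in KO, nearly all from Cela2a, while Cpa1, Prss2, Pnlip and Cel were at 0 in all 8 liver libraries. Neutrophil markers summed to at most 0.449 CPM. Of 8 hepatocyte markers 1 was higher in KO (Apoa1) and 1 lower (Tat), and of 7 stellate cell markers 0 were higher and 2 lower (Col1a1 and Col3a1). Of 3 tested bile duct markers 1 was higher (Sox9) and 0 were lower, with a list median of -0.19. Cyp17a1, a steroid enzyme and the only testis marker tested, was higher. Blood markers summed to 112.5 to 163.7 CPM in WT and 104.4 to 127.9 CPM in KO, mostly Alas2, with 0 of 3 tested markers called and a list median of -0.83. Among them the globin gene Hbb-bs averaged 4.01 CPM in WT and 1.96 CPM in KO. The part of these shifts in the hormone levels was not tested.

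Receptor genes of the 3 hormones were read next. Of 11 receptor and coreceptor genes 8 were tested, and 2 fell while 0 rose (median log2 change -0.15, against -0.00 for all genes). Over all genes tested in liver 2.79% rose and 3.12% fell, the background for every list count in liver. Fgfr1, the FGF receptor through which FGF21 is best known to signal with Klb, measured 7.50, 9.42, 7.90 and 6.85 CPM in WT and 3.96, 3.97, 5.20 and 5.16 CPM in KO. No KO library reached the WT range, and Fgfr1 fell by 0.79 on the log2 scale (SE 0.125, adjusted p = 0.00601). Fgfr3, a related receptor, was at 38.1 to 46.3 CPM in WT and 28.0 to 37.3 CPM in KO and fell by 0.44 (adjusted p = 0.0223), a call that was lost when WT 1, WT 2, WT 3, KO 7 or KO 8 was left out (adjusted p up to 0.0701). Exons of both genes overlap a gene on the opposite strand, and the strand setting of the counting is not given in the sources used here.

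Klb itself did not pass. Its levels were 35.2, 35.6, 30.4 and 29.8 CPM in WT and 20.3, 23.3, 32.6 and 33.8 CPM in KO, a log2 difference of -0.22 (adjusted p = 0.336). KO 5 and KO 6 lay below all WT libraries, and KO 7 and KO 8 lay within the WT range. Fgfr4, the main hepatocyte FGF receptor, was at -0.06 (adjusted p = 0.758) and Igf1r, the receptor for the ligands that IGFBP1 binds, at 0.11 (adjusted p = 0.792). Gfral, the GDF15 receptor, had 0 counts in all 8 liver libraries, and its partner Ret had at most 2.

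Of 27 tested genes that regulate the 3 hormones, 2 rose, 0 fell and 25 did not pass, with a median of 0.00, where 2.79% of all genes tested in liver rose and 3.12% fell. DESeq2 and sample quality weights each called 6 of them. TMM scaling, library totals only and no low-count filter each called 1, and edgeR called 0. Ppargc1a, a coactivator of PPARA and FOXO1 in fasting, averaged 4.99 ± 1.04 CPM across WT and 7.93 ± 1.06 CPM across KO libraries (SD, n = 4 each) and rose by 0.67 on the log2 scale (SE 0.169, limma adjusted p = 0.0425). Creb3l3, a hepatocyte factor known to act with PPARA on Fgf21, rose by 0.24 (SE 0.0497, adjusted p = 0.0181). Without WT 1, WT 2 or WT 3 neither call held, and the Ppargc1a call was also lost without KO 6, KO 7 or KO 8 (adjusted p up to 0.129 for Ppargc1a and 0.0616 for Creb3l3). Creb3l3 was not called with TMM scaling either.

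Atf4 transcript did not pass the test in liver. It measured 105.9, 105.2, 62.4 and 56.3 CPM in WT and 82.1, 76.3, 76.9 and 76.2 CPM in KO. The KO libraries sat together, below WT 1 and WT 2 and above WT 3 and WT 4, and the log2 difference of 0.02 (adjusted p = 0.965) turned to -0.02 with TMM. ATF4 is controlled largely at translation, so its transcript does not report its activity. Ddit3, which encodes the stress factor CHOP, was at 0.34 (adjusted p = 0.269), Ppara at 0.21 (SE 0.0575, adjusted p = 0.0560) and Foxo1 at 0.12 (adjusted p = 0.547). Ppara passed with DESeq2 (adjusted p = 0.0145) and with sample quality weights in limma (adjusted p = 0.0132) but in none of the other 15 alternatives, whose adjusted p reached 0.605. Ddit3 and Foxo1 overlap genes on the opposite strand. Ddit3 also overlaps another entry of the same symbol on its own strand, and the value given is that of a single entry.

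Of 34 ATF4 target genes tested in liver 1 rose, 4 fell and 29 did not pass, with a median log2 change of -0.08, where 2.79% of all genes tested rose and 3.12% fell. Asns, which encodes asparagine synthetase, measured 2.54, 1.75, 0.778 and 0.778 CPM in WT and 13.3, 12.6, 6.57 and 7.67 CPM in KO. Every KO library was above every WT library, and Asns rose by 2.72 (SE 0.436, adjusted p = 0.00628), close to the difference of Fgf21. The 4 targets that fell were Slc6a9, a glycine transporter, by 0.72 (adjusted p = 0.00890), Slc3a2, the heavy chain of amino acid exchangers, by 0.34, Xpot, the tRNA exporter, by 0.26, and Aars, the alanyl-tRNA synthetase, by 0.26. Calls of Slc3a2 and Aars were lost without WT 1, WT 2, WT 3, KO 5 or KO 6 and that of Xpot without WT 1 or WT 2 (adjusted p up to 0.106). Exons of Slc6a9 and Aars overlap other genes. Trib3 and Chac1, well-known targets named after their values were seen, did not pass, with Trib3 at -0.36 (adjusted p = 0.373) and Chac1 at -0.19 (adjusted p = 0.799). In cerebellum, where Fgf21 was not detected and Gdf15 and Igfbp1 were near 0, 21 of 37 tested ATF4 targets rose and 0 fell, where 3.93% of all 16225 genes tested rose and 2.51% fell. In testes 3 of 34 rose and 2 fell, where 9.74% of all 19329 genes tested rose and 10.7% fell.

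PPARA target and ketogenesis genes gave 4 that rose and 0 that fell of 37 tested, against 2.79% and 3.12% of all genes, at a median of 0.04. Angptl4, a secreted inhibitor of lipoprotein lipase that fasting induces, measured 51.3, 54.6, 46.5 and 37.0 CPM in WT and 75.9, 73.8, 131.1 and 130.2 CPM in KO and rose by 1.12 (SE 0.172, adjusted p = 0.00508). As for Igfbp1, KO 7 and KO 8 were the highest libraries. Cyp4a31, a fatty acid hydroxylase with close paralogs that may share its reads, rose by 1.29 (adjusted p = 0.0143), a call lost without WT 1 (adjusted p = 0.0551). Plin2, a lipid droplet coat protein, rose by 0.28 (adjusted p = 0.0402), but its call held in only 1 of 8 fits with a library left out, that without WT 2, and was lost with TMM, as was that of Creb3l3, the remaining gene. Cpt1a, which lets fatty acids into mitochondria and was named after its values were seen, did not pass, at 0.29 (adjusted p = 0.0873).

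FOXO1 target and gluconeogenesis genes, to which Igfbp1 belongs by its regulation, gave 2 that rose and 5 that fell of 27 (2.79% and 3.12% of all genes), at a median of -0.04. Irs2, the insulin receptor substrate that FOXO1 induces in fasting, measured 41.4, 37.8, 60.5 and 56.8 CPM in WT and 60.3, 68.4, 112.6 and 104.3 CPM in KO and rose by 0.83 (SE 0.218, adjusted p = 0.0494). As for Igfbp1, KO 7 and KO 8 were the highest libraries and WT 1 and WT 2 the lowest, but KO 5 lay just below WT 3, the call was lost without WT 1, WT 2, WT 3, KO 6, KO 7 or KO 8 (adjusted p up to 0.137), and its exons overlap a gene on the opposite strand. The 5 that fell included Sds (by 0.62, adjusted p = 0.00951), Tat (by 0.51, adjusted p = 0.00575), Pcx (by 0.42, adjusted p = 0.00266) and Slc37a4 (by 0.35, adjusted p = 0.0303). The other was Klf15, which fell by 0.26, and the Slc37a4 call was lost in 6 of 8 fits that left a library out, without any of the WT libraries, KO 7 or KO 8 (adjusted p up to 0.0885). The Pcx call was lost with library totals only. Pck1 and G6pc, the classic gluconeogenic enzymes and named after their values were seen, stood at 0.04 (adjusted p = 0.906) and -0.12 (adjusted p = 0.650). For Pck1 the KO pairs parted, at 651 and 659 CPM in KO 5 and KO 6 and 1159 and 1120 CPM in KO 7 and KO 8, around a WT range of 804 to 903 CPM.

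Of 18 tested insulin-responsive and lipogenic genes, 0 rose, 3 fell and 15 did not pass, where 2.79% of all genes rose and 3.12% fell, with a median of -0.21. Srebf1, which encodes the main lipogenic transcription factor under insulin, measured 459, 460, 328 and 301 CPM in WT and 203, 188, 214 and 198 CPM in KO. The groups did not overlap and Srebf1 fell by 0.88 (SE 0.0903, adjusted p = 0.000582), although its exons overlap Rai1 on the other strand. Fasn, fatty acid synthase, fell by 0.91 (SE 0.155, adjusted p = 0.00813), with 1542 to 1805 CPM across WT and 706 to 1016 CPM across KO libraries. Tkt, a pentose phosphate enzyme, fell by 0.30 (adjusted p = 0.0124), a call lost without WT 1 or WT 2 (adjusted p up to 0.0529).

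**Figure D3:**
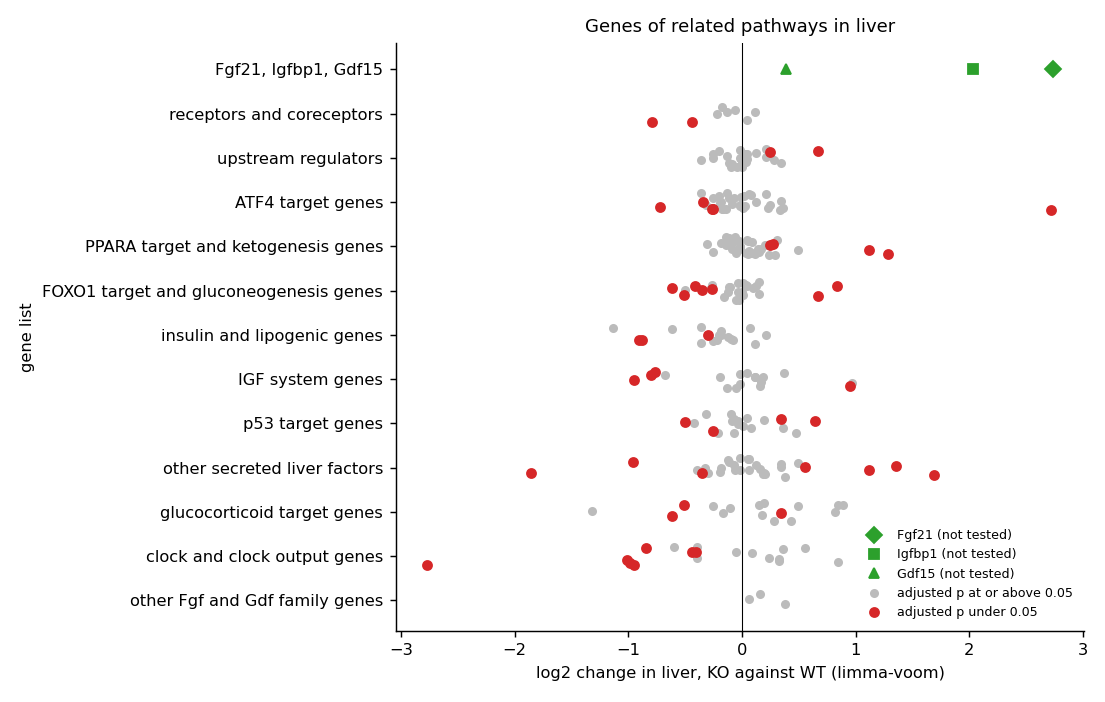
Log2 change in liver, KO against WT, for Fgf21, Igfbp1 and Gdf15 (green, not tested) and for the tested genes of 12 lists, red where the limma adjusted p is under 0.05. Asns at 2.72 is the only ATF4 target beyond a change of 1. The receptor, lipogenic and clock lists hold called genes on the lower side only, and the regulator and PPARA lists on the higher side only.

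Partners of IGFBP1 in the IGF system were 1 that rose and 3 that fell of 18 tested (2.79% and 3.12% of all genes), with a median of 0.02. Igfbp2, the other insulin-suppressed binding protein of liver, measured 361, 368, 506 and 463 CPM in WT and 745, 710, 923 and 857 CPM in KO. Without overlap, Igfbp2 rose by 0.95 (SE 0.149, adjusted p = 0.00587). Igfbp3 and Igfals, which encode the parts of the long-lived IGF1 complex of blood, fell. Igfbp3 held 15.4 to 20.1 CPM across WT and 9.15 to 10.5 CPM across KO libraries and fell by 0.77 (adjusted p = 0.00477). Igfals fell by 0.80 (adjusted p = 0.0294). Socs3, a brake on cytokine signalling, fell by 0.95 (adjusted p = 0.0327). Calls of Igfals and Socs3 were lost in 5 and 6 of the 8 fits with a library left out, Igfals without WT 1, WT 2, WT 3, KO 5 or KO 6 (adjusted p up to 0.0912) and Socs3 without WT 1, WT 3, WT 4, KO 5, KO 6 or KO 8 (adjusted p up to 0.0744). Igf1, the ligand itself, was at 318, 314, 236 and 230 CPM in WT and 208, 208, 237 and 255 CPM in KO, a log2 difference of -0.19 that did not pass (adjusted p = 0.195).

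**Figure D4:**
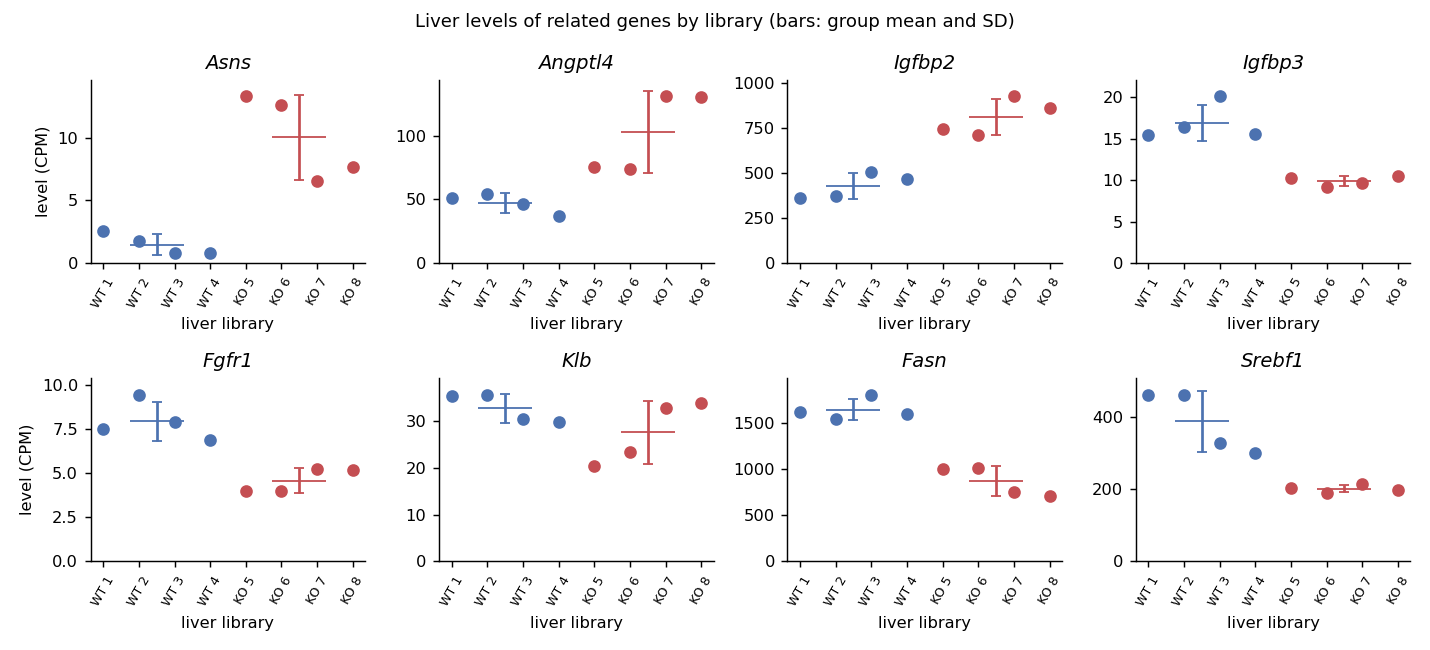
Level in CPM (linear axes from 0) in the 8 liver libraries of Asns, Angptl4, Igfbp2, Igfbp3, Fgfr1, Klb, Fasn and Srebf1, with bars at the group mean and SD. Asns, Angptl4 and Igfbp2 were higher in all 4 KO libraries, Igfbp3, Fgfr1, Fasn and Srebf1 lower, and Klb overlapped.

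Gdf15 is also a p53 target, and the p53 list gave 2 that rose and 2 that fell of 19 (median -0.04), against 2.79% and 3.12% of all genes. Trp53inp1, a stress-induced p53 partner, rose by 0.64 (SE 0.118, adjusted p = 0.0116), and Rps27l rose by 0.35 (adjusted p = 0.0304). Aen, a nuclease, fell by 0.50 (adjusted p = 0.0347) and Perp, a membrane protein, by 0.26 (adjusted p = 0.0236). Calls other than that of Trp53inp1 were lost when single libraries were left out. They were lost without WT 1 or WT 2 for all of them, also without KO 7 for Aen and Perp, KO 8 for all of them, WT 3 and KO 5 for Rps27l and Aen, and KO 6 for Rps27l (adjusted p up to 0.106). Cdkn1a and Mdm2, the best-known p53 targets and named after their values were seen, were at 0.47 (adjusted p = 0.380) and 0.08 (adjusted p = 0.714).

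Other secreted liver factors gave 4 that rose and 3 that fell of 30 (median 0.05), against 2.79% and 3.12% of all genes. Besides Angptl4, Hamp2, a hepcidin paralog, rose by 1.69 (SE 0.111, adjusted p = 6.24e-05), with 5.23 to 6.29 CPM across WT and 16.8 to 21.3 CPM across KO libraries. Enho, which encodes adropin, rose by 1.36 (adjusted p = 0.00851), and Inhba, the activin A subunit, by 0.56 (adjusted p = 0.0171, and 0.0524 without WT 1). Tsku, a secreted factor of liver, measured 185, 178, 95.1 and 80.4 CPM in WT and 26.7, 29.5, 39.5 and 39.7 CPM in KO and fell by 1.86 (adjusted p = 0.00215). Pltp, the phospholipid transfer protein, fell by 0.96 (adjusted p = 6.24e-05), and the acute phase gene Orm1 fell by 0.35 (adjusted p = 0.0280), a call lost without WT 1, WT 2, WT 3, KO 7 or KO 8 (adjusted p up to 0.0913). Hamp2, Enho and Pltp overlap genes on the opposite strand, and Hamp2 may share reads with Hamp. Of the Fgf and Gdf families 3 other genes were tested, and 0 passed in the quantile-normalized limma fit or in edgeR, against 1 in limma with TMM scaling, in limma with sample quality weights, in limma without KO 5 and in DESeq2.

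Hormones of fasting follow the time of day and glucocorticoids, so those lists were read beside them. Of 18 clock genes 0 rose and 7 fell, with a median of -0.39, where 2.79% of all genes rose and 3.12% fell. Dbp, a clock output factor, fell by 2.77 (SE 0.309, adjusted p = 0.00100), with 6.48 to 10.5 CPM across WT and 0.958 to 1.98 CPM across KO libraries. Per2 fell by 1.01, Per3 by 0.98 and Nr1d1 by 0.95 (adjusted p = 0.00231, 0.00816 and 0.00415), while Cry2, Tef and Bhlhe40 also fell. Dbp and Nr1d1 overlap genes on the opposite strand. Of 16 glucocorticoid targets 1 rose and 2 fell (median 0.19), beside the same 2.79% and 3.12% of all genes. Tsc22d3, a direct glucocorticoid target, rose by 0.35 (adjusted p = 0.00725), and the pair that fell was Sds and Tat. The Tsc22d3 call was lost with library totals only. Per1, which is both a clock gene and a glucocorticoid target and was named after its values were seen, measured 2.86 and 3.20 CPM in KO 5 and KO 6 and 16.2 and 15.5 CPM in KO 7 and KO 8, against 2.92 to 7.44 CPM in WT. Libraries with high Per1 in KO were thus those with the highest Igfbp1 and Angptl4. In WT the order was reversed for Igfbp1. Per1 was at 7.44 and 6.18 CPM in WT 1 and WT 2, where Igfbp1 was lowest. It was at 2.92 and 3.11 CPM in WT 3 and WT 4, where Igfbp1 was higher. Angptl4 was higher in WT 1 and WT 2, as Per1 was. The part of collection time or feeding in the hormone levels was not tested.

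Genes with the most similar liver profiles were sought for each hormone gene. Likeness was the root-mean-square difference of log2 CPM over the 8 liver libraries, each gene centred on its WT mean, so a smaller value is more alike. These genes were picked for a pattern that includes the genotype difference, and their values are a description. Asns was closest to Fgf21 (0.696), followed by Mtnr1a, a melatonin receptor (1.06), Serpina7, a thyroxine carrier (1.07), Hamp2 (1.15) and Igfbp1 (1.24). Fgf21 stood at -1.34 in WT 3 and -1.21 in WT 4, lower than any of these 5 genes, of which Asns came nearest in WT 3, at -0.784, and Serpina7 in WT 4, at -0.606. Within KO the order of Asns and Fgf21 differed. Asns was highest in KO 5 and KO 6 (3.37 and 3.27) and lower in KO 7 and KO 8 (2.25 and 2.47), while Fgf21 was lowest in KO 5 (2.11) and between 2.84 and 2.94 in the others.

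Igfbp1 had closer neighbours. Srrm4, a splicing factor gene, came first (0.220), at 3.26, 3.21, 3.86 and 4.56 CPM in WT and 8.82, 11.5, 16.8 and 15.9 CPM in KO, although its exons overlap Srrm4os on the opposite strand. Serpinb6b, a protease inhibitor (0.379), Hamp2 (0.487), Enho (0.530) and Maff, a stress-induced transcription factor (0.549), followed. For Gdf15 the closest genes were Jun, an immediate early factor (0.164), Ppp1r3c, a glycogen-targeting subunit (0.193), Taf1a (0.230), Usp18 (0.240) and Tnfrsf11b (0.241). Jun measured 18.0, 17.8, 8.15 and 5.33 CPM in WT and 18.8, 17.5, 11.9 and 12.4 CPM in KO, lower in WT 3 and WT 4 than in WT 1 and WT 2 and lower in KO 7 and KO 8 than in KO 5 and KO 6, as Gdf15 was. With TMM scaling, 4 of the 5 genes were kept for Fgf21, 5 of 5 for Igfbp1 and 4 of 5 for Gdf15.

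**Figure D5:**
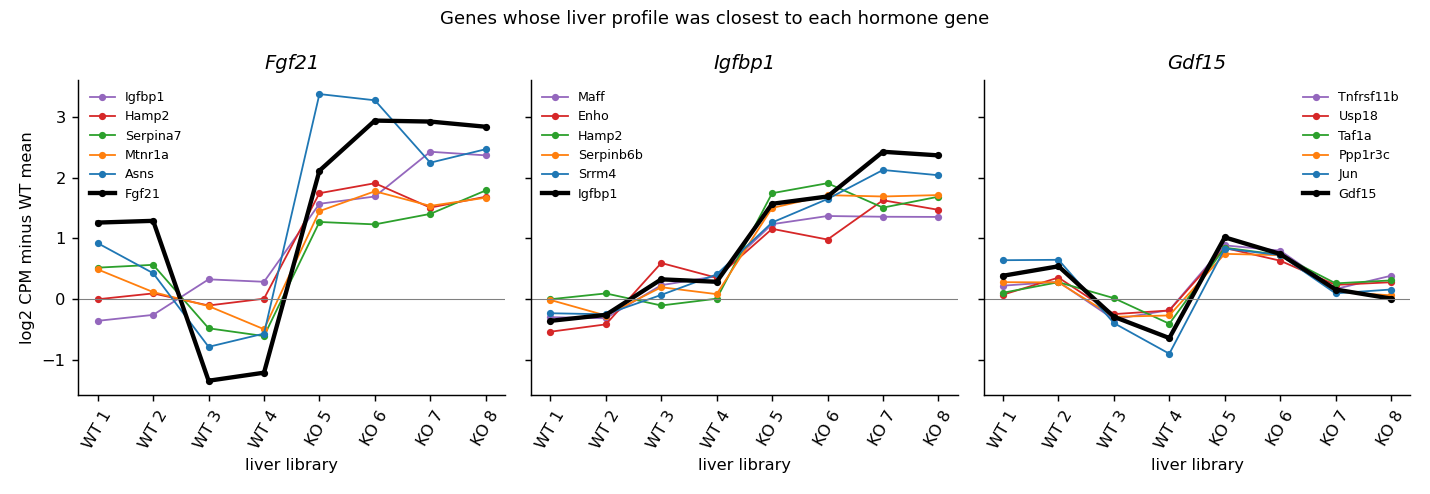
Quantile-normalized log2 CPM minus the WT mean, by liver library, for each hormone gene (black) and the 5 genes with the smallest root-mean-square difference from it. Asns was nearest to Fgf21 at 0.696, Srrm4 to Igfbp1 at 0.220 and Jun to Gdf15 at 0.164, with a step between WT 2 and WT 3 and between KO 6 and KO 7 in the Gdf15 panel.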

How the data were processed

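Total RNA of liver, cerebellum and testes was depleted of ribosomal RNA and sequenced as stranded paired-end libraries. Per the labels and the study's methods, the authors aligned reads with STAR to mm10 with the GENCODE M21 annotation and deposited RSEM expected counts per gene, not normalized. Versions and the strand setting are not given in the sources used here. Values above 0 that were not whole made up 12.3% to 16.6% per library, and 0 columns were left unmatched. Groups came from the sample titles.

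CPM divides each expected count by the library total, and CPM per kb also by exon length. The 3 tissues were fitted separately, 8 libraries each. Genes that reached 1 CPM in 4 or more libraries were quantile normalized, weighted by voom and compared with limma 3.58.1 in R 4.3.3, with Benjamini-Hochberg adjustment over all genes tested and a threshold of 0.05. The study names the 1 CPM filter, quantile normalization and limma-voom. The number of libraries in the filter is the group size. Genes that miss the filter in cerebellum or testes were compared by an exact two-sided permutation test of mean CPM.

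The members and lists were chosen with earlier results of these data known, and the lists come from general knowledge. Besides the 3 hormone genes, Thumpd1, Asns, Atf4, Ddit3, Ppara, Foxo1, Klb and Igf1, the text names up to 4 called genes per list and direction with the largest change and a mean log2 CPM of 1 or more, and the 5 genes most like each member. Predicted genes were left out. A few genes are not reported here. Other named genes are said to be chosen after their values were seen, or complete a short count.

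Alternatives were TMM scaling, library totals only, TMM without 6 abundant noncoding RNAs (which took 17.5% to 31.0% of liver counts), edgeR 4.0.16 and DESeq2 1.42.0 on rounded expected counts, other low-count filters, sample quality weights and each library left out in turn. The sum of neighbouring libraries, and keeping the genes of the full fit when a library was left out, were chosen after seeing the data. The liver fit was tested on simulated data of 12816 genes with 200 changed by 1 on the log2 scale, of which it recovered 86.5%, with 4.42% of calls false. Simulated libraries were drawn independently, without the closeness of some neighbouring liver libraries, so these shares may not carry over to the real data. Other steps used Python with pandas, numpy, scipy and matplotlib.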

Additional observations from a re-analysis of the deposited data

Results flagged for a closer look

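In groups of 4 libraries, 4 of 130 groups examined held a library whose gap to its nearest neighbour, as a share of the group's range, was above Dixon's 95% limit, and chance alone flags about 1 in 20. For Fgf21 in KO liver the share was 0.910, because KO 5 stood at 1.35 CPM below 2.38 to 2.48 CPM in the other KO libraries. Without KO 5 the log2 difference between genotypes was 2.69 in place of 2.74. Igfbp1 in WT testes gave a share of 1, since 1 library held 2 counts and the others 0. Atf4 in KO liver gave 0.882, with KO 5 at 82.1 CPM above 76.2 to 76.9 CPM. Nr1d1 in WT liver gave 0.925, with WT 4 at 84.6 CPM below 103.6 to 105.1 CPM.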

How the results depend on the processing

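The liver differences of the 3 hormone genes kept their sign in all 17 alternative fits. Fgf21 ranged from 2.16 with sample quality weights to 3.45 with neighbouring libraries summed, Igfbp1 from 1.89 without KO 7 to 2.31 with weights, and Gdf15 from 0.03 with weights to 0.56 without WT 2. Without WT 4, the library with Xist, they were 2.34, 2.13 and 0.19. Counts of genes called moved far more. In liver the 757 genes became 447 with library totals only, 1408 with DESeq2, 492 with no low-count filter, 1705 with weights and 10 with neighbours summed. In cerebellum the 1045 genes became 628 without the filter, 1757 with weights and 48 with neighbours summed, and in testes the 3957 genes became 6107 with weights and 1 with neighbours summed. Leaving out a library gave 292 (without WT 1) to 798 (without WT 4) in liver, 398 (without WT 1) to 2321 (without KO 6) in cerebellum and 1741 (without WT 3) to 4931 (without KO 5) in testes. The causes were not tested, other than that the summed fit had fewer libraries.

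With neighbours summed, 2 secreted factors (Hamp2 and Pltp) passed, and the count was 0 in the receptor, regulator, ATF4, PPARA, FOXO1, lipogenic, IGF, p53, glucocorticoid and clock lists. Library totals only gave 1 regulator, 3 ATF4 targets, 4 FOXO1 targets and 1 p53 target. TMM gave 1 regulator, 2 PPARA targets and 1 other Fgf or Gdf gene, with or without the noncoding RNAs. Regulators were 0 with edgeR, 6 with DESeq2, 1 without the filter and 6 with weights. DESeq2 gave 7 lipogenic, 6 glucocorticoid and 1 Fgf or Gdf genes. No filter gave 4 FOXO1, 2 IGF and 2 p53 genes. Weights gave 7 PPARA, 6 lipogenic, 7 glucocorticoid, 11 clock and 1 Fgf or Gdf genes. With a library left out, counts ran from 1 to 2 for receptors, 0 to 4 for regulators, 2 to 6 for ATF4 targets, 1 to 4 for PPARA targets, 3 to 7 for FOXO1 targets, 2 to 5 for lipogenic genes, 2 to 4 for the IGF system, 1 to 5 for p53 targets, 5 to 8 for secreted factors, 3 to 4 for glucocorticoid targets, 7 to 8 for clock genes and 0 to 1 for the Fgf and Gdf families.

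Of 45 named genes called in liver, 27 held in all 8 fits with a library left out and 25 held also in all 8 other settings besides the sum. Among those that held are Thumpd1 itself and Mtnr1a, Serpina7, Srrm4, Serpinb6b and Maff, which were picked for profiles that include the genotype difference. These counts therefore do not measure how stable called genes are in general. With neighbours summed, only Thumpd1, Hamp2 and Pltp of the 45 passed. Library totals only ended the calls of Creb3l3, Slc3a2, Aars, Plin2, Irs2, Pcx, Tkt, Igfals, Rps27l, Aen, Perp, Orm1 and Tsc22d3. Without the low-count filter those of Ppargc1a, Slc3a2, Plin2, Irs2, Slc37a4, Socs3, Igfals, Rps27l and Aen were lost, and with edgeR those of Ppargc1a, Creb3l3, Plin2 and Irs2. Atf4 turned to -0.0243 with TMM, -0.0235 with totals only, -0.0259 without noncoding RNAs, -0.0567 with edgeR, -0.0523 with DESeq2 and -0.172 with weights, and ran from -0.0973 without WT 4 to 0.131 without WT 2. Jun turned to -0.0505 with weights. In testes the Gdf15 difference was -0.0111 CPM on TMM library sizes and -0.0483 to 0.0829 CPM with a library left out. The Igfbp1 difference in cerebellum ran from -0.129 to -0.0300 CPM and that of Fgf21 in testes from -0.269 to -0.0157 CPM. No paired analysis was possible because WT replicates are numbered 1 to 4 and KO replicates 5 to 8, so the groups compared share no number.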
